A study of Mus musculus with 6 samples.

Results

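A set of 10 inflammatory genes that are textbook targets of NF-kB was followed in mouse osteoblasts labelled as knockout for the kinase NDR1 and in wild-type cells. They are the chemokines Cxcl1, Cxcl5 and Ccl7, the adhesion molecules Icam1 and Vcam1, the prostaglandin enzymes Ptgs2 and Ptges, the secreted innate proteins Lcn2 and Saa3, and the NF-kB inhibitor Nfkbia. They were chosen by symbol, and all 10 were found among 29018 rows of the deposited table, each with 1 identifier. The cells came from the skull vault (calvaria) of neonatal mice and had been put through osteogenic differentiation in culture. They were either NDR1 knockout (KO, 3 libraries) or wild type (WT, 3 libraries). No inflammatory agent is named for either group. The labels give no strain, sex, knockout allele or Cre driver, and do not say whether replicates came from separate animals or cultures, so p-values cover the spread among these 6 libraries, part or all of which may be technical.

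NF-kB is a family of dimeric transcription factors that inhibitor proteins of the IkB type hold in the cytoplasm. Signals from receptors for tumour necrosis factor, interleukin 1 or microbial products activate the IKK kinases, the inhibitor is degraded, and the freed dimer binds kappa B sites in target promoters. The gene for the inhibitor IkB-alpha, Nfkbia, is itself a target and closes a feedback loop. In bone, osteoblasts and stromal cells answer such signals with chemokines, prostaglandin E2 and adhesion molecules that draw and hold blood cells and osteoclast precursors.

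Libraries held 61461870 to 76159034 counts, and mitochondrial transcripts took 2.32 to 2.48% of them. The osteoblast markers were all read (12 of 12 tested), with a summed level of 53040 to 55623 CPM (counts scaled to library size) in KO and 71052 to 72741 CPM in WT, most of it Col1a1 and Col1a2. Of these markers 6 fell and 1 rose in KO, among them alkaline phosphatase Alpl (42.7 ± 3.42 CPM in KO and 97.0 ± 2.27 CPM in WT) and osteopontin Spp1 (1730 ± 158 CPM in KO and 658 ± 52.1 CPM in WT), and their part in the members' values was not tested. Stk38, the gene for NDR1, stood at 4.15 ± 0.165 FPKM (the authors' value per transcript length and library total) in KO and 6.13 ± 0.264 FPKM in WT (SD, n = 3 each), so its mRNA was lower in KO but still read (log2 change -0.61 ± 0.05, edgeR, adjusted p = 8.10e-06). KO was set against WT over 18221 genes that passed a filter on low counts, and a gene counted as called where the quasi-likelihood test of edgeR gave it a p under 0.05 after Benjamini-Hochberg adjustment. By that rule 11.2% of tested genes were higher and 11.7% lower in KO, 22.9% in all. Of all calls 49.0% were higher, against 63.0% when libraries were scaled by their totals instead of TMM.

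Of the 10 inflammatory genes, Cxcl5, Ptgs2, Icam1 and Vcam1 rose in KO and none fell. Fold changes were 2.63 for Cxcl5, 2.19 for Ptgs2, 1.36 for Icam1 and 1.3 for Vcam1. Ccl7, Ptges, Nfkbia and Cxcl1 were tested and did not pass, and Lcn2 and Saa3 had too few counts to be tested. At an unadjusted p under 0.05 edgeR gave 4 members higher and 0 lower, and DESeq2, which also took in the low genes, gave 4 higher and 1 lower (Lcn2). In edgeR without a count filter the unadjusted numbers were 5 and 0. The median log2 change of the 8 tested members was 0.41, against 0.00 over all tested genes. That figure leaves out both members of fewest counts and describes only those that passed the filter. The same 4 members had all KO libraries above all WT libraries in CPM, a pattern seen in 19.2% of all tested genes. No tested member had all KO libraries below WT, against 19.1% of tested genes. Lcn2, which was not tested, had all KO libraries below WT, with 7 counts over KO and 43 over WT. Macrophage markers were also higher in these KO libraries (summed level 1088 to 1198 CPM in KO and 444 to 573 CPM in WT), and their part in the members' values was not tested. In RNA from whole cultures, fewer cells of a type and less RNA per cell cannot be told apart.

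Per length, the members spanned a wide range. Over all 6 libraries the mean was 19.7 FPKM for Vcam1, 15.7 for Icam1, 13.1 for Ccl7, 11.6 for Ptges, 9.79 for Nfkbia, 2.30 for Cxcl5, 2.02 for Ptgs2, 0.233 for Cxcl1, 0.0419 for Lcn2 and 0.0271 for Saa3. The clear steps in that order, where the ranges over libraries did not overlap, lay between Nfkbia and Cxcl5 and between Ptgs2 and Cxcl1. The order was the same in both genotypes except for neighbours: Cxcl5 stood above Ptgs2 in KO and below it in WT, and Saa3 above Lcn2 in KO and below it in WT.

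**Figure D1:**
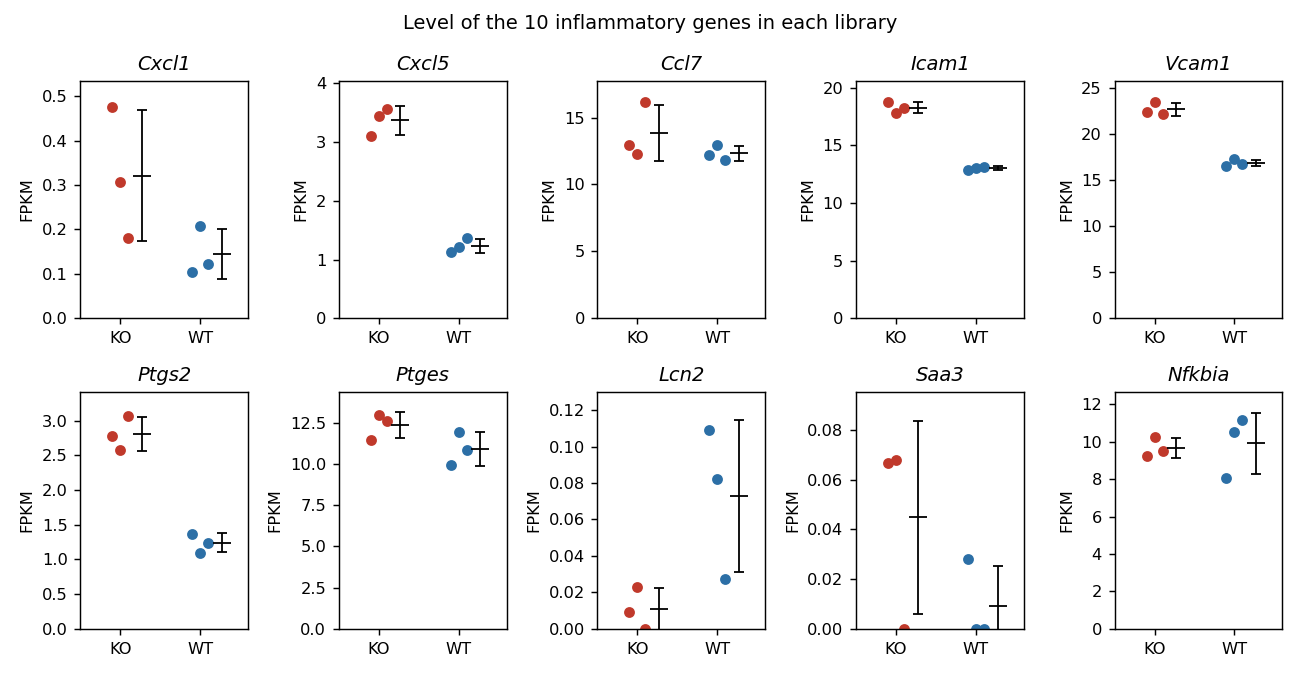
FPKM of each of the 10 genes in each library, KO (red) left of WT (blue), with the mean and SD in black beside the points (bars end at the axis where they would pass below 0). KO and WT points do not overlap for Cxcl5, Icam1, Vcam1 and Ptgs2 (KO above WT) or for Lcn2 (KO below WT). Lcn2 and Saa3 lie below 0.12 FPKM throughout.

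Promoter stretches of 4 members are shown because binding sites for NF-kB in promoters are what groups these genes in textbooks. The RefSeq promoter table (GRCm38.p6) held 7 of the 10 members, and Cxcl5, Ccl7 and Vcam1 were not among them. Stretches from 180 to 1 bases before the annotated start are printed for a chemokine, an adhesion gene, the inhibitor and the rate-limiting prostaglandin enzyme, 5′ to 3′ on the gene's strand, in lower case, with the core GGAANTTCC in capitals. They lie at chr5:90891065-90891244 (plus strand) for Cxcl1, chr9:21015760-21015939 (plus strand) for Icam1, chr12:55492648-55492827 (minus strand) for Nfkbia and chr1:150099851-150100030 (plus strand) for Ptgs2.
Cxcl1: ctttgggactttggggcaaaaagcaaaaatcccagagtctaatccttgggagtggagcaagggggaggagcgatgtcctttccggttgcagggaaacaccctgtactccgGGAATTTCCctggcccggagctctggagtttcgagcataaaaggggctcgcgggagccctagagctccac
Icam1: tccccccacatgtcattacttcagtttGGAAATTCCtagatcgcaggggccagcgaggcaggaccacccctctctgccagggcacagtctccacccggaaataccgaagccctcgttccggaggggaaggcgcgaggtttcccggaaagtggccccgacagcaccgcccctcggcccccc
Nfkbia: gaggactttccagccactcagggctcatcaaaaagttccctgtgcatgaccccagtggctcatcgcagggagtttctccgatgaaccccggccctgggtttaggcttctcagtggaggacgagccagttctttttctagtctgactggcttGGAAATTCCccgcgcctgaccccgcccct
Ptgs2: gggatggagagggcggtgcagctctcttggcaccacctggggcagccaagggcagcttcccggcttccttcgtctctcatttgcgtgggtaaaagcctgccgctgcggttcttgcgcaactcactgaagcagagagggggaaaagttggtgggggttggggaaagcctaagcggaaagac

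The core GGAANTTCC reads the same way on both strands and was chosen after these sequences were seen. It starts 70 bases before the start of Cxcl1, 153 before that of Icam1 and 29 before that of Nfkbia. It occurred in the 300-base window (250 bases before to 50 after the start) of these 3 of 7 members, and in 0.928% of all 32851 promoters in the table. A longer kappa B pattern (GGG, any 3 bases, any 2 pyrimidines, then CC, on either strand) occurred in Cxcl1 and Nfkbia, 2 of 7 members, and in 19.4% of all promoters. In Cxcl1 and Nfkbia a match to the longer pattern overlapped the core. Among the 3 with the core, Icam1 rose in KO while Nfkbia and Cxcl1 did not pass the test. Ptgs2, Ptges, Lcn2 and Saa3 had no match to either pattern in this window.

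The chemokines differed among themselves. Cxcl5 encodes an attractant of neutrophils that signals through the receptor CXCR2, and lies on chromosome 5 (90907219 to 90909483, in the table's own coordinates, for which no mouse build is named). Its level was 3.10, 3.45 and 3.57 FPKM in KO and 1.13, 1.22 and 1.36 FPKM in WT. The lowest KO library stood above the highest WT library. The log2 change was 1.39 ± 0.14 (SE), a 2.63-fold higher level in KO with a 95% interval of 2.12 to 3.27 (edgeR, adjusted p = 4.71e-05). Counts behind these values were modest, 420 to 540 per KO library and 149 to 185 per WT library.

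Cxcl1, a second CXCR2 ligand of the same cluster on chromosome 5, was barely read. It had 72, 39 and 28 counts in KO and 15, 28 and 18 counts in WT. The KO libraries were scattered, and the lowest of them overlapped WT, and the SD of CPM was 45.1% of the mean in KO and 33.9% in WT. The log2 change of 1.06 ± 0.48 did not pass (edgeR, adjusted p = 0.157), and its interval, 0.987-fold to 4.39-fold, includes both no change and the change of Cxcl5.

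Ccl7 encodes a chemokine that draws monocytes through receptors that include CCR2. It stood at 13.0, 12.3 and 16.2 FPKM in KO and 12.2, 12.9 and 11.9 FPKM in WT. The groups overlapped, and KO replicate 3 lay above all other libraries. The log2 change of 0.12 ± 0.11 did not pass (edgeR, adjusted p = 0.529), with a 95% interval of 0.912-fold to 1.29-fold. Without KO replicate 3 it was -0.02. Per length, Ccl7 was the most abundant chemokine of the 3 in both genotypes.

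The wider chemokine list was mostly low, with 16 of 22 genes in the table passing the filter. Of these 3 rose (Ccl9, Cxcl12 and Ccl11) and 1 fell (Cx3cl1). Over all tested genes 11.2% were higher and 11.7% lower in KO. The counts of this list and of those below are to be read beside these shares. Ccl9, a chemokine of myeloid cells, stood at 24.5 ± 1.05 CPM in KO and 11.7 ± 1.99 CPM in WT (log2 change 1.06 ± 0.11, edgeR, adjusted p = 5.27e-05). Cxcl12, which retains blood stem cells in marrow, changed by 0.17 ± 0.05 on the log2 scale and the eosinophil attractant Ccl11 by 0.89 ± 0.26, but Ccl11 lost its call without any single library (adjusted p = 0.0553 to 0.0914) and in DESeq2 (adjusted p = 0.0836), and Cxcl12 without any single library except KO replicate 3 (adjusted p = 0.0599 to 0.0816). Cx3cl1, the membrane-bound chemokine fractalkine, changed by -0.31 ± 0.03. Ccl2, a monocyte attractant next to Ccl7 in function, stood at 7.88 ± 1.25 CPM in KO and 6.68 ± 0.455 CPM in WT and did not pass (edgeR, adjusted p = 0.250). Cxcl2, another neutrophil attractant, had 5 counts over the KO libraries and 11 over the WT libraries.

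Of 10 chemokine receptor genes tested 3 rose and 0 fell (4 and 0 in edgeR at an unadjusted p under 0.05, 3 and 0 in DESeq2). Cx3cr1, the fractalkine receptor of macrophages, stood at 4.33 ± 0.187 CPM in KO and 0.918 ± 0.121 CPM in WT (log2 change 2.24 ± 0.18). The scavenging receptor Ackr3 stood at 47.3 ± 1.34 CPM in KO and 38.0 ± 1.97 CPM in WT (0.32 ± 0.05). Ccr2, a receptor for CCL7, had 29 counts over KO and 32 over WT and did not pass (edgeR, adjusted p = 0.914). Cxcr2 was sought by symbol and was not found in the deposited table, so its level is not known here.

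Icam1 and Vcam1 were the most abundant members per length, and both rose. Icam1, on chromosome 9 (20927281 to 20940113), encodes the ligand of the leukocyte integrins LFA-1 and Mac-1. It stood at 18.8, 17.8 and 18.3 FPKM in KO and 12.8, 13.1 and 13.2 FPKM in WT. The spread within a genotype was narrow, and the genotypes did not overlap. The log2 change was 0.44 ± 0.04, a 1.36-fold higher level with a 95% interval of 1.28 to 1.44 (edgeR, adjusted p = 1.12e-05).

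Vcam1, on chromosome 3 (115903598 to 115923337), encodes the ligand of the integrin VLA-4 and is made by stromal cells of marrow as well as by endothelium. It stood at 22.3, 23.5 and 22.1 FPKM in KO and 16.5, 17.2 and 16.7 FPKM in WT, again without overlap. The log2 change was 0.38 ± 0.03, a 1.3-fold higher level with a 95% interval of 1.24 to 1.36 (edgeR, adjusted p = 9.92e-06). Within a library Vcam1 stood at 1.19, 1.32 and 1.21 times the FPKM of Icam1 in KO and at 1.29, 1.32 and 1.27 times in WT, so these ratios overlapped between genotypes. Neither adhesion gene passed when edgeR tested for a change beyond 1.5-fold (adjusted p = 1 for both). Each overlapped 1 gene on the other strand, with 52 counts in all libraries together for the one at Icam1 and 18 for the one at Vcam1.

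The 3 tested non-members whose log2 CPM over the 6 libraries ran most like that of Vcam1, the member of highest mean FPKM, were Syngr2 (Pearson r = 0.999), Stmn2 (r = 0.998) and Ptx3 (r = 0.998). These points are only 2 groups of 3 libraries, and 824 of 18213 genes had an r above 0.95. Ptx3 encodes pentraxin 3, a soluble pattern recognition protein, and stood at 326 ± 6.54 CPM in KO and 240 ± 4.92 CPM in WT.

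Several chains of the integrins that bind these ligands were higher in KO. Of 10 genes tested among integrin chains, selectins, their ligand and other ICAMs 5 rose and 0 fell (7 and 0 in edgeR at an unadjusted p under 0.05, 5 and 0 in DESeq2), with a median log2 change of 1.33. Itgal, the alpha chain of LFA-1, changed by 1.67 ± 0.23, and Itgam, the alpha chain of Mac-1, by 1.37 ± 0.11. Their shared beta chain Itgb2 stood at 19.9 ± 1.27 CPM in KO and 8.17 ± 1.26 CPM in WT (log2 change 1.29 ± 0.11, edgeR, adjusted p = 1.42e-05). Selplg, the P-selectin ligand, changed by 1.55 ± 0.20. These are genes of blood cells, and Itgam is also in the macrophage list. Itga4, the alpha chain of VLA-4, changed by 0.68 ± 0.14 (adjusted p = 0.00446) but did not pass in limma on log2(FPKM + 1) with no filter (adjusted p = 0.0545). Itgb1 encodes the beta chain of VLA-4 and was not called (0.01 ± 0.02 on the log2 scale, edgeR, adjusted p = 0.749). Itgb1 stood at 1300 ± 17.9 CPM in KO and 1289 ± 19.2 CPM in WT, and the genotypes overlapped.

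**Figure D2:**
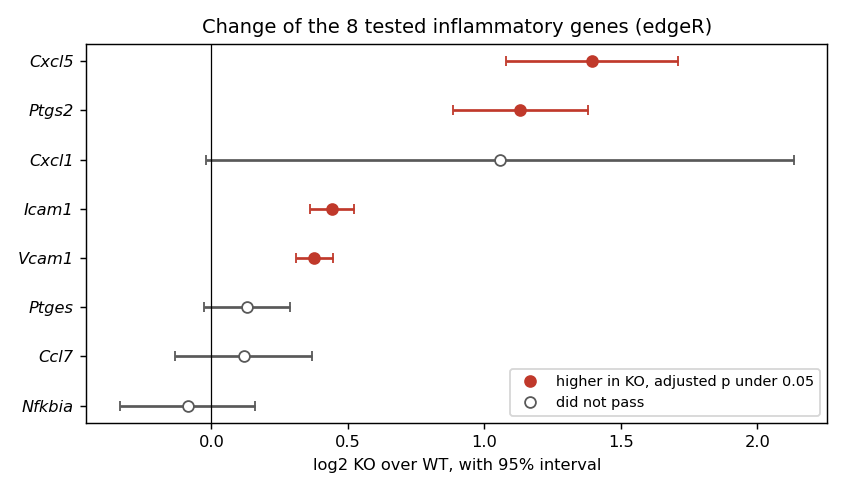
Log2 change (KO over WT) of the 8 tested members with 95% intervals from edgeR, filled red where the adjusted p was under 0.05. The intervals of Cxcl5, Ptgs2, Icam1 and Vcam1 lie above 0, and those of Cxcl1, Ptges, Ccl7 and Nfkbia include 0.

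Ptgs2 and Ptges act in sequence. Ptgs2 encodes cyclooxygenase 2, the inducible enzyme that turns arachidonic acid into prostaglandin H2, and Ptges the synthase that turns that product into prostaglandin E2, a strong regulator of bone turnover. Ptgs2, on chromosome 1 (149975782 to 149983978), stood at 2.78, 2.58 and 3.07 FPKM in KO and 1.37, 1.10 and 1.24 FPKM in WT. The genotypes did not overlap. The log2 change was 1.13 ± 0.11, a 2.19-fold higher level with a 95% interval of 1.85 to 2.60 (edgeR, adjusted p = 3.99e-05).

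Ptges stood at 11.5, 13.0 and 12.6 FPKM in KO and 9.92, 11.9 and 10.9 FPKM in WT. The groups overlapped, since WT replicate 2 lay above KO replicate 1. The log2 change of 0.13 ± 0.07 did not pass (edgeR, adjusted p = 0.243), and its interval ran from 0.980-fold to 1.22-fold. Within a library Ptgs2 stood at 0.243, 0.199 and 0.243 times the FPKM of Ptges in KO and at 0.138, 0.0922 and 0.114 times in WT. This ratio does not depend on how libraries are scaled, and its KO values lay above its WT values.

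The constitutive cyclooxygenase Ptgs1 fell, with 25.7 ± 0.669 CPM in KO and 31.1 ± 1.28 CPM in WT (log2 change -0.27 ± 0.06, edgeR, adjusted p = 0.00515). Ptgs1 remained the more abundant cyclooxygenase per length, and Ptgs2 stood at 0.444 ± 0.0451 times its FPKM in KO and 0.167 ± 0.0158 times in WT (SD, n = 3 each). Pla2g4a, the phospholipase that frees arachidonic acid, rose to 42.5 ± 3.18 CPM in KO, against 25.7 ± 1.25 CPM in WT (log2 change 0.73 ± 0.07, adjusted p = 2.40e-05). Genes that remove prostaglandins rose too, the transporter Slco2a1 by 0.75 ± 0.09 and the degrading dehydrogenase Hpgd by 0.93 ± 0.07 on the log2 scale.

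In all, of 18 prostanoid genes besides Ptgs2 and Ptges, 6 rose, 5 fell and 7 did not pass, with a median log2 change of 0.23. The prostaglandin D2 synthases moved in opposite directions. Hpgds, the form of blood cells, changed by 1.30 ± 0.15, and Ptgds, the lipocalin form, fell to 0.185 ± 0.047 CPM in KO, against 2.69 ± 0.137 CPM in WT (log2 change -3.85 ± 0.27, edgeR, adjusted p = 3.71e-06). The 4 receptors for prostaglandin E2 did not move together. Ptger3 changed by -1.70 ± 0.16 and Ptger4 by -0.80 ± 0.13. Ptger1 rose (7.09 ± 0.813 CPM in KO and 4.74 ± 1.14 CPM in WT, log2 change 0.58 ± 0.17, edgeR, adjusted p = 0.0359), but lost its call without any single library except WT replicate 1 (adjusted p = 0.0521 to 0.124). Ptger1 also missed the threshold in edgeR with a replicate block or without a count filter (adjusted p = 0.0503 and 0.0747). The same held in limma on FPKM with no filter (adjusted p = 0.116). Ptger2 stood at 1.59 ± 0.151 CPM in KO and 0.548 ± 0.397 CPM in WT and did not pass in edgeR (adjusted p = 0.0738). It did pass in DESeq2, in limma on FPKM with no filter, in edgeR with a replicate block and without WT replicate 2 (lowest adjusted p over the alternatives 0.0212).

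**Figure D3:**
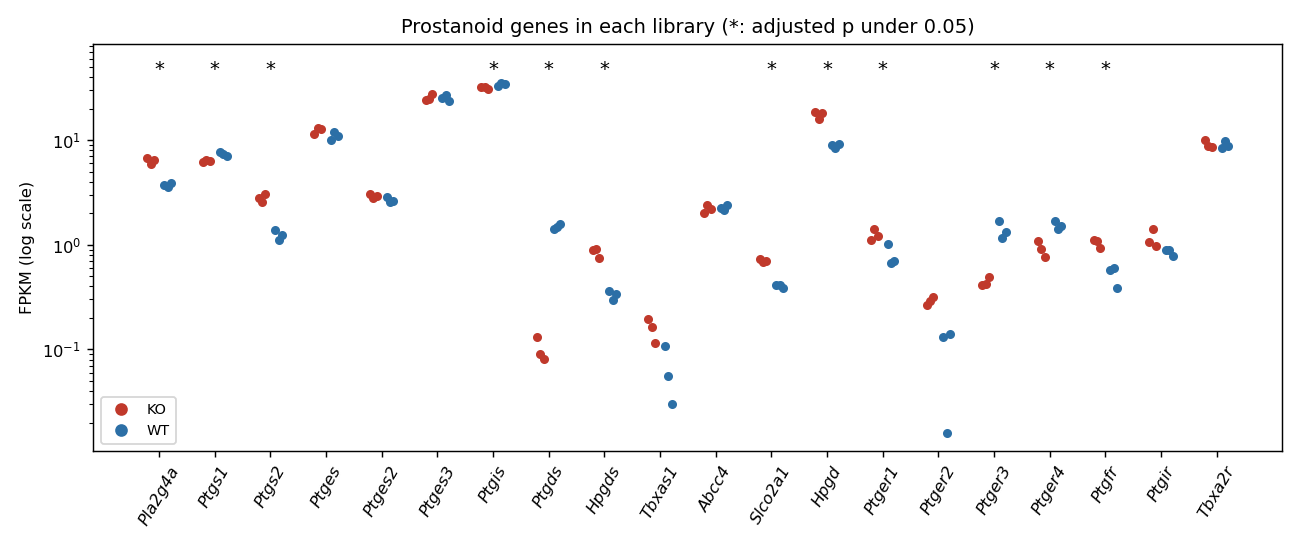
FPKM on a log scale of Ptgs2, Ptges and the other prostanoid genes in each library, KO (red) left of WT (blue), from substrate release through synthases, transport and breakdown to receptors. An asterisk marks genes with adjusted p under 0.05 in edgeR; Ptgs2 is higher in KO, Ptgs1 lower and Ptges not called.

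The secreted innate proteins were at the edge of detection. Lcn2 encodes lipocalin 2, an iron-chelating protein of innate defence that osteoblasts can secrete as a hormone. It had 2, 5 and 0 counts in KO and 21, 16 and 6 counts in WT. Its deposited annotation names a retained intron and a transcript without a defined coding sequence, but no protein-coding transcript. Whether these counts cover the coding transcript was not tested. The highest KO library and the lowest WT library differed by 1 count. Tested in edgeR without a count filter, Lcn2 missed the threshold (log2 change -2.60 ± 1.16, adjusted p = 0.238), and DESeq2 gave adjusted p = 0.127 and an unadjusted p = 0.0308. The 0 in KO replicate 3 allows up to 0.0390 CPM (3 counts, counting error only).

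Saa3, an acute phase protein made by fat cells, macrophages and stroma, had 14, 12 and 0 counts in KO and 6, 0 and 0 counts in WT. Counts were thus concentrated in 2 KO libraries and 1 WT library. It missed the threshold in edgeR without a count filter (log2 change 1.98 ± 1.81, adjusted p = 0.557). Reads shared with the related Saa genes may be counted for any of them, and the sources used here do not say how shared reads were counted.

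The other acute phase genes ran mostly down. Of 10 tested 5 fell and 1 rose, with a median log2 change of -0.61. Complement C3 stood at 13.4 ± 0.792 CPM in KO and 30.9 ± 2.11 CPM in WT (log2 change -1.21 ± 0.07, edgeR, adjusted p = 1.11e-06). The protease inhibitor Slpi changed by -1.59 ± 0.12, complement factor B (Cfb) by -1.02 ± 0.15 and the lipopolysaccharide-binding protein Lbp by -0.58 ± 0.06. C3 and Cfb are textbook NF-kB targets as well, so genes of that kind moved in both directions in these cells. The copper carrier ceruloplasmin (Cp) rose by 0.34 ± 0.06. Slc22a17, a receptor for lipocalin 2, was at 0.03 ± 0.05 and did not pass (edgeR, adjusted p = 0.764).

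Nfkbia, the feedback inhibitor, stood at 9.21, 10.2 and 9.52 FPKM in KO and 8.06, 10.5 and 11.2 FPKM in WT. All KO libraries lay within the range of the WT libraries, which were the more scattered (SD of CPM 5.30% of the mean in KO and 16.4% in WT). The log2 change of -0.09 ± 0.11 did not pass (edgeR, adjusted p = 0.651), and moved to -0.22 without WT replicate 1 and to 0.01 without WT replicate 3. Its 95% interval ran from 0.793-fold to 1.12-fold, so a change as large as that of Ptgs2 or Cxcl5 lay outside it.

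The genes of the NF-kB machinery itself are read here against the 22.9% of all tested genes that were called. Of 15 subunits and inhibitors tested 3 rose and 0 fell (4 and 1 in edgeR at an unadjusted p under 0.05, 3 and 0 in DESeq2), with a median log2 change of 0.07. Those that rose were Bcl3 and Nfkbiz, nuclear IkB proteins that modify transcription by bound NF-kB, and Cyld, a deubiquitinase that restrains the pathway. Bcl3 stood at 8.68 ± 1.22 CPM in KO and 4.68 ± 0.406 CPM in WT (log2 change 0.89 ± 0.13, edgeR, adjusted p = 8.07e-04). Nfkbiz changed by 0.48 ± 0.11 and Cyld by 0.17 ± 0.05, but Cyld lost its call without KO replicate 1 or 3 or WT replicate 1 or 2 (adjusted p = 0.0849, 0.0834, 0.0582 and 0.0830).

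The DNA-binding subunits were Rela at -0.08 ± 0.04, Nfkb1 at -0.06 ± 0.04, Nfkb2 at 0.07 ± 0.05, Relb at 0.04 ± 0.08 and Rel at 0.11 ± 0.07 (log2 change). None passed edgeR's test (adjusted p = 0.189, 0.345, 0.368, 0.765 and 0.323). Tnfaip3, which encodes the inhibitor A20 and is a sensitive target of the pathway, stood at 6.21 ± 0.773 CPM in KO and 5.44 ± 0.359 CPM in WT and did not pass (edgeR, adjusted p = 0.355).

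Of 26 kinases and adaptors tested 2 rose and 1 fell. Ikbkg, the regulatory subunit NEMO of the IKK complex, stood at 75.1 ± 2.78 CPM in KO and 51.9 ± 1.91 CPM in WT (log2 change 0.53 ± 0.04, edgeR, adjusted p = 1.24e-05). The catalytic subunits Ikbkb and Chuk were at 0.02 ± 0.05 and 0.05 ± 0.06 and did not pass (edgeR, adjusted p = 0.877 and 0.667). The receptor-kinase brake Irak3 (0.32 ± 0.09) rose and the adaptor Tab2 (-0.10 ± 0.03) fell, but Irak3 lost its call without KO replicate 1 or 2 or WT replicate 1 (adjusted p = 0.0845, 0.0905 and 0.0699), and Tab2 without any single library except WT replicate 3 (adjusted p = 0.0610 to 0.104). Tab2 also missed the threshold with libraries scaled by their totals (log2 change -0.05, adjusted p = 0.263), in all 3 limma fits on FPKM and without a count filter, and Irak3 in limma on FPKM with no filter and in edgeR without a count filter.

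Tnf, a classical ligand upstream of NF-kB, had 104 counts over the KO libraries and 71 over the WT libraries and did not pass (edgeR, adjusted p = 0.655). Il1b, another, had 4 counts over each genotype. Il6, a classical target, had 31 counts over KO and 16 over WT, too few to be tested.

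Among ligands, antagonists, receptors and co-receptors of the TNF, IL-1, IL-17 and Toll families, 5 of 21 genes tested rose and 3 fell, with a median log2 change of 0.20. Lbp, which hands lipopolysaccharide to the Toll receptor complex, is one of the 3 that fell and is also counted among the acute phase genes. Il1rn, the natural antagonist of the IL-1 receptor, stood at 12.0 ± 1.27 CPM in KO and 2.18 ± 0.247 CPM in WT (log2 change 2.46 ± 0.13, edgeR, adjusted p = 5.12e-07). The TNF receptors rose, Tnfrsf1a by 0.23 ± 0.03 and Tnfrsf1b by 0.74 ± 0.13, as did the IL-33 receptor Il1rl1 by 0.57 ± 0.10. The alarmin Il33 changed by -1.08 ± 0.19 and the receptor chain Il17rc by -0.30 ± 0.08, and Il17rc lost its call without KO replicate 1 or 2 or WT replicate 2 or 3 (adjusted p = 0.0897 to 0.101). The signalling receptors Il1r1 and Tlr4 were at -0.00 ± 0.04 and -0.11 ± 0.08 and did not pass (edgeR, adjusted p = 0.956 and 0.374).

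A further list of 18 tested genes that inflammatory signals induce in many cells had 10 that rose and 1 that fell, with a median log2 change of 0.29. Tnfaip2 stood at 102 ± 1.74 CPM in KO and 65.0 ± 2.58 CPM in WT (log2 change 0.65 ± 0.04, edgeR, adjusted p = 9.34e-07). Mmp13, the collagenase of bone and cartilage, stood at 557 ± 28.7 CPM in KO and 299.7 ± 24.5 CPM in WT (0.89 ± 0.06). Csf1, the growth factor of macrophages, changed by 0.20 ± 0.03 and the plasminogen activator Plau by 0.56 ± 0.08. Tnfaip6, a hyaluronan-binding protein induced by TNF, changed by -0.68 ± 0.09.

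**Figure D4:**
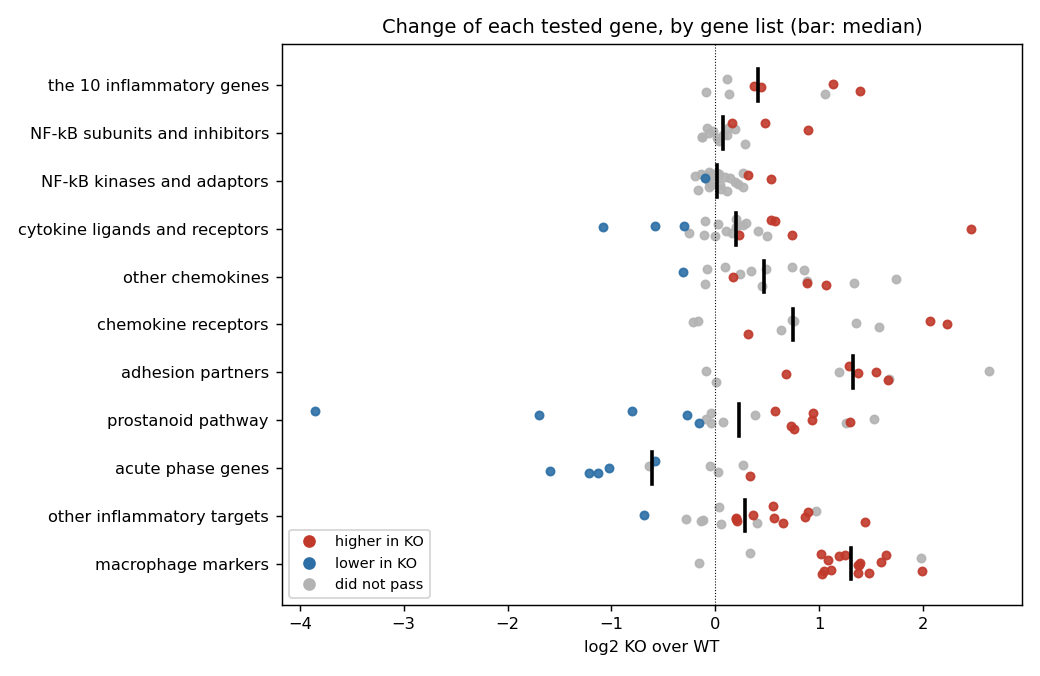
Log2 change (KO over WT) of each tested gene by list, red where higher and blue where lower in KO at adjusted p under 0.05, with a black bar at the median. NF-kB subunits, kinases and adaptors gather near 0, macrophage markers and adhesion partners lie mostly to the right, and acute phase genes mostly to the left.

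Markers of other cells moved in the same libraries. Of 18 macrophage markers 15 rose and 0 fell (16 and 0 in edgeR at an unadjusted p under 0.05, 15 and 0 in DESeq2), with a median log2 change of 1.31. The log2 change was above 0 for 17 of them, and 3 did not pass. No marker lacked counts in all libraries of a genotype. Macrophages can make Cxcl5, Ptgs2, Icam1, Ccl9 and Il1rn, among other cell types. Only genes that rose in KO are named here, and the part of macrophages in their values was not tested.

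Of 8 endothelial markers tested 3 fell and 0 rose, with a summed level of 9.89 to 12.1 CPM in KO and 16.7 to 17.2 CPM in WT. In edgeR at an unadjusted p under 0.05, 3 fell and 0 rose, and in DESeq2 2 fell and 0 rose. Endothelium is a classical source of Icam1 and Vcam1, and the part of these cells in the values of both genes was not tested. Much of the summed level was Tek, an angiopoietin receptor (5.77 ± 0.943 CPM in KO and 10.2 ± 0.0387 CPM in WT), and only Sele stood at 0, in WT. Of 12 neutrophil markers 6 were in the table, with a summed level of 1.52 to 2.02 CPM in KO and 0.457 to 0.948 CPM in WT. Most of that sum was Mmp8, a collagenase of neutrophil granules, which rose (1.36 ± 0.104 CPM in KO and 0.460 ± 0.176 CPM in WT, log2 change 1.56 ± 0.33, edgeR, adjusted p = 0.00593). Ly6g and Mpo had 0 counts over KO and 4 over WT, and Camp had 4 over KO and 0 over WT. The 3 lymphocyte markers in the table summed to 0.301 to 0.520 CPM in KO and 0.0762 to 0.183 CPM in WT, with Cd3d at 0 in KO.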

How the data were processed

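The authors deposited 1 table with whole-number counts and FPKM per gene for 6 libraries of polyA RNA, per the file headers. FPKM, computed by the authors, are scaled to transcript length and library total. The submitters' processing notes name cutadapt 1.9, HISAT2 2.0.4 and StringTie 1.3.4d; for parameters, counting and strand handling the sources used here give nothing. The notes list a human build, and of 10 members found in the RefSeq gene table (GRCm38.p6, separate from the promoter table) 0 had its start or end, so deposited coordinates and the promoters are never mixed.

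Counts were tested with edgeR 4.0.16 in R 4.3.3 (two-sided quasi-likelihood test of genotype alone, with TMM scaling and filterByExpr), adjusted over 18221 genes. The SE was derived from the log2 change and its F statistic. CPM are scaled by TMM. Alternatives used limma 3.58.1 and DESeq2 1.42.0. The script was tested on simulated data. Intervals reflect only the spread among these libraries, and floors only counting error.

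Members and lists were chosen with earlier results of these data known. Named genes are the members, Stk38, up to 4 called genes of lowest p per pathway list and direction, a fixed core, and the 3 genes most like Vcam1. Ly6g, Mpo, Camp, Mmp8, Sele, Tek, Cd3d, Col1a1, Col1a2, Alpl, Spp1, Itgb1, Ptger1, Ptger2 and Rel were named after their values were seen. One gene that the rule names is not reported here. Sequences are from RefSeq, GRCm38.p6.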

Additional observations from a re-analysis of the deposited data

How the results depend on the processing

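The 4 members called higher (Cxcl5, Ptgs2, Icam1, Vcam1) kept that call, and no member was called lower, in DESeq2, with other scalings, without a count filter, in 3 limma fits on FPKM (pseudocount 1 or 0.1 with a mean FPKM of at least 1, and pseudocount 1 with no filter), with a replicate block and without each library. Testing against a 1.5-fold change left 2 members higher, with 338 genes higher and 304 lower in all against 2048 and 2131. Genes called lower numbered 1267, 1254 and 1246 in the limma fits in that order; the cause was not tested. Without 1 library, 4 members stayed higher and 0 lower each time, with 1588 to 1731 genes called higher and 1712 to 1893 lower. The replicate block gave 1912 genes higher and 1976 lower and, among members, 4 higher and 0 lower. Same-numbered libraries did not deviate together (correlation of deviations -0.0548 to 0.0131 over 3 pairs). With so few pairs this cannot exclude that the numbers pair libraries. Log2 changes over the alternatives ran from 0.97 to 1.47 for Cxcl5, 0.77 to 1.21 for Ptgs2, 0.42 to 0.49 for Icam1 and 0.36 to 0.43 for Vcam1. Cxcl1, Ccl7, Ptges and Nfkbia were never called (0.20 to 1.36, -0.02 to 0.20, 0.07 to 0.20 and -0.22 to 0.01), with a lowest adjusted p of 0.0873, 0.288, 0.0851 and 0.0985. No library had more than 72 counts of Cxcl1, 21 of Lcn2 or 14 of Saa3, and depth and spread between libraries were not separated for these genes.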
